A study of Mus musculus with 13 samples.

Results

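SMAD2/3 binding, with vehicle or after activin A for 1 h, was examined in 4 of the 13 samples of the series, the libraries made with a SMAD2/3 antibody: 2 from vehicle-treated and 2 from activin-treated cells. The cells were LβT2, an established mouse pituitary line labelled as gonadotrope, stably transduced with a doxycycline-inducible FLAG-tagged mouse FOXL2. All 4 SMAD2/3 samples therefore carried the transgene and had received doxycycline for 48 h, so the vehicle group is not a group without added FOXL2. After 2 h in medium with 2% serum, cells were given vehicle or 1 nM activin A, cross-linked with 1% formaldehyde, and pooled from 3 plates per sample. The members examined are 8602 regions, made by merging SMAD2/3 peaks of any of the 4 lists that shared at least 1 bp. The FLAG-FOXL2 and H3K27ac libraries of the series, 4 each, were used as other readouts at the same regions. A Protein-A control sample is described for the series and was not used here, so control values at these regions are not given.

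Activin is a dimeric ligand of the TGF-β family that binds type II and type I receptor kinases at the cell surface. The activated receptors phosphorylate SMAD2 and SMAD3, which join SMAD4, move to the nucleus and bind DNA with other transcription factors. SMAD6 and SMAD7 are inhibitory members of the family that dampen the pathway. In gonadotropes, the pituitary cells that make the gonadotropins, activin is known for raising the transcription of Fshb, the gene of the follicle-stimulating hormone β subunit, and FOXL2 is a forkhead factor that takes part with SMADs. H3K27ac is an acetylated histone mark found at active promoters and enhancers.

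The vehicle lists held 605 and 144 SMAD2/3 peaks and the activin lists 7784 and 5970. The groups did not overlap in length, with a difference of 4.53 in log2 peak number and a pooled SD of 1.05 between replicates (n = 2 per group, exact permutation p = 0.33, two-sided). That is the smallest p this test can give for 2 libraries against 2, and it is reached whenever the groups do not overlap. The pooled SD gives only the spread between these samples, which may be technical. Reads per library are not in the files, so depth is unknown, and the part that depth has in the lengths of the lists was not tested. As a check of the cell type, H3K27ac peaks lay within 1 kb of the start in all 4 H3K27ac libraries for 6 of 7 gonadotrope markers (Cga, Lhb, Gnrhr, Nr5a1, Pitx1 and Foxl2). The exception was Fshb, with such a peak in 0 of 4 libraries. The 4 markers of other pituitary cell types whose start could be placed (Ghrhr, Prl, Tshb and Pomc) had one in 0 of 4 libraries, and 3 others (Gh, Tbx19 and Pou1f1) could not be placed. The cells also carry a mouse FOXL2 transgene, and whether its reads add to the peak at Foxl2 was not tested.

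Most regions with peaks in both activin libraries had none in either vehicle library. These gained regions numbered 4642, which is 54% of the 8602 regions. Regions kept, with a peak in all 4 libraries, numbered 132, or 1.53%. A further 388 regions had a peak in 1 vehicle library and both activin libraries, 380 of them in vehicle replicate 1. Regions with a vehicle peak and no activin peak numbered 58, or 0.674%, and 55 of these came from vehicle replicate 1 alone. The longer vehicle list thus supplied nearly all regions called in a single vehicle library. Without vehicle replicate 2, 512 regions would count as kept, and without activin replicate 2, 7243 would count as gained. With each list held to its 144 strongest peaks, 30 regions were gained and 65 kept, so both counts move with the length of the lists.

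**Figure D1:**
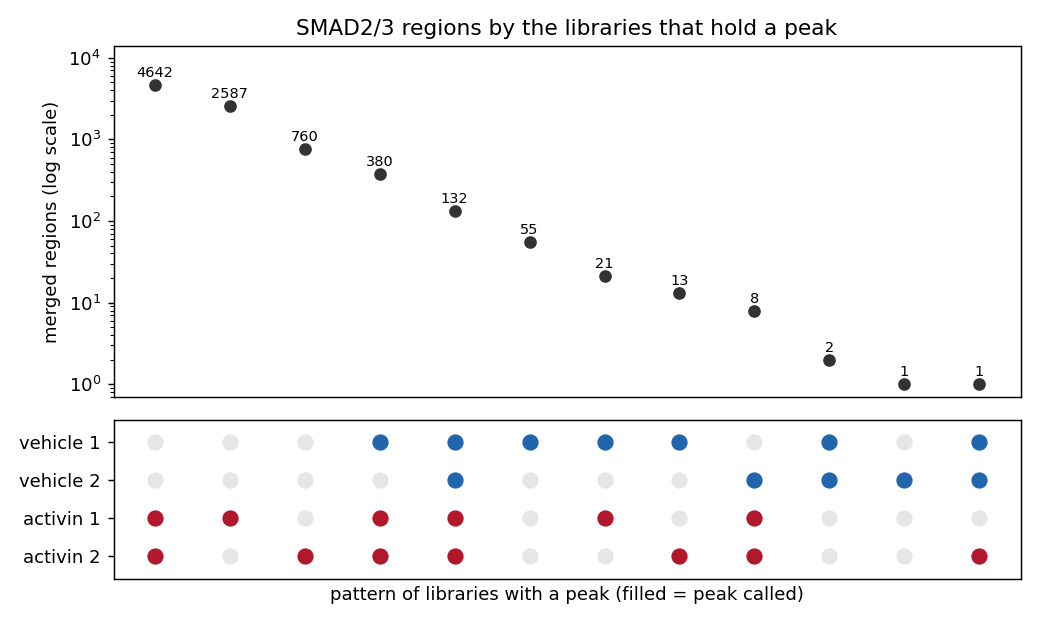
Number of merged SMAD2/3 regions (log axis) for each combination of libraries with a peak. Filled dots below mark the libraries that hold a peak, blue for vehicle and red for activin. The tallest point is the 4642 gained regions, and kept regions number 132.

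Activin lists held a smaller share of promoter peaks than vehicle lists, though a larger number, at 337 and 259 against 93 and 14. Per library, 15.4% and 9.72% of vehicle peaks and 4.33% and 4.34% of activin peaks had the promoter class in the deposited annotation. The means were 12.5% ± 3.99 (SD, n = 2) and 4.33% ± 0.00634 (SD, n = 2). The 2 groups did not overlap, and they differed by -8.21 percentage points with a pooled SD of 2.82 between replicates (exact permutation p = 0.33, two-sided). Among the 144 strongest peaks of each list the shares were 11.8% and 9.72% against 2.78% and 2.08%, which is a difference of -8.33 percentage points. The share of peaks within 1 kb of a start followed the same order, with 13.2% and 11.1% in vehicle lists against 3.85% and 3.72% in activin lists (exact permutation p = 0.33). Introns held 40.8% and 49.3% of vehicle peaks and 50% and 50.7% of activin peaks, a difference of 5.25 percentage points that was 1.01 without vehicle replicate 1. Intergenic shares overlapped between the groups, at 40% and 36.1% against 40.3% and 39.7% (exact permutation p = 0.667). Beyond 50 kb of a start lay 27.9% and 28.5% of vehicle peaks and 27.2% and 27.2% of activin peaks. That difference was 0 between lists of equal length.

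Of 93 promoter-class regions with a peak in any vehicle list, 42 had none in either activin list. Those 42 made up 72.4% of the 58 regions with a vehicle and no activin peak. The promoter class held 171 (3.68%) of the gained, 10 (7.58%) of the kept and 24 (6.19%) of the 388 regions with 1 vehicle and both activin peaks. The 35 regions with a vehicle peak and 1 activin peak lay between, at 17 (48.6%). The median distance to the nearest start was 0.237 kb for regions with vehicle and no activin peaks, 20.8 kb for kept and 21.6 kb for gained regions. These groups were defined by the lists themselves, so their shares carry no test. Without vehicle replicate 1, only 3 regions with a vehicle and no activin peak were left, 2 of them of promoter class, so the promoter pattern rests almost wholly on that library. Without vehicle replicate 2 it was 41 of 57.

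**Figure D2:**
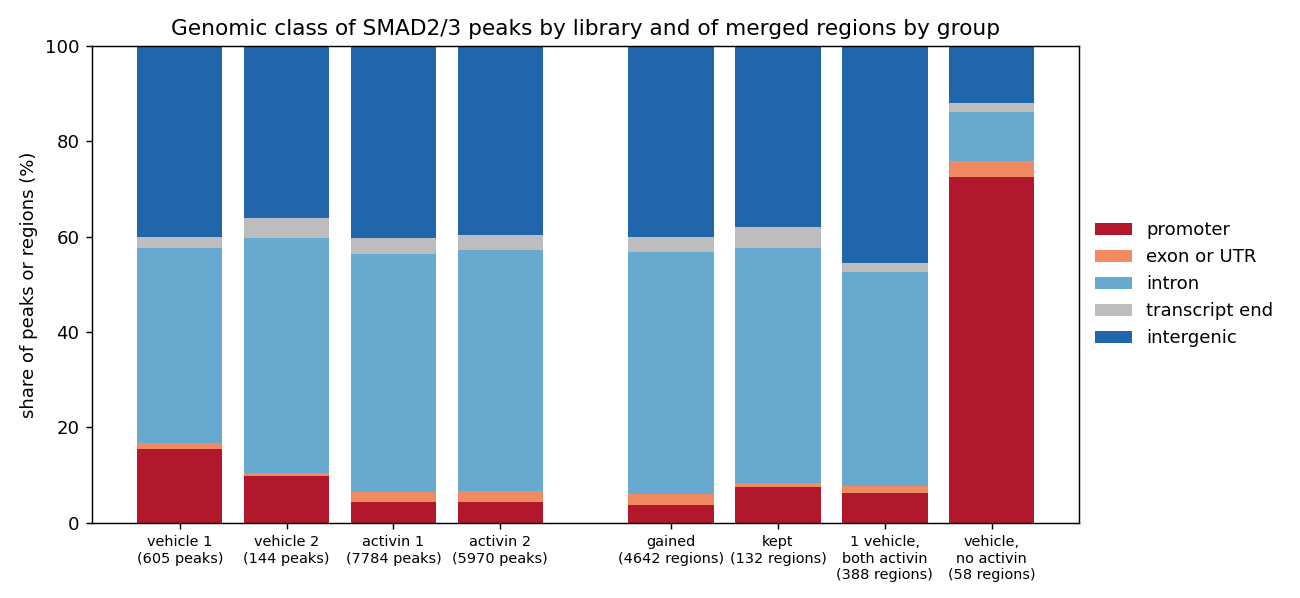
Share (%) of SMAD2/3 peaks in each genomic class, for the 4 libraries on the left and for 4 groups of merged regions on the right. Promoters (dark red) make up 72.4% of regions with a vehicle and no activin peak and 3.68% of gained regions.

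**Figure D3:**
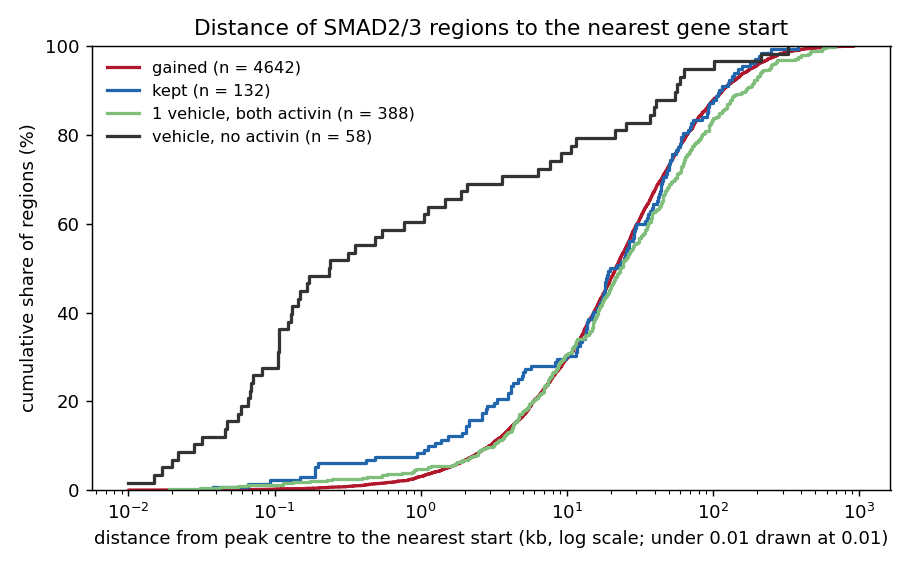
Cumulative share (%) of regions against the distance from the peak centre to the nearest start (kb, log axis), for 4 groups of SMAD2/3 regions. The gained and kept curves run close together, with medians of 21.6 and 20.8 kb. The 58 regions with a vehicle and no activin peak reach their median at 0.237 kb.

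FLAG-FOXL2 and H3K27ac peaks were counted at the same regions. A FLAG-FOXL2 peak was present in both vehicle libraries at 70.1% of gained regions and in both activin libraries at 80.6%. H3K27ac peaks were present in both vehicle libraries at 57% and in both activin libraries at 73.4%. These values lay near those of all 8602 regions, at 66.6% and 75.6% for FLAG-FOXL2 and 54.9% and 67% for H3K27ac. At kept regions the activin values were 95.5% for FLAG-FOXL2 and 94.7% for H3K27ac. At regions called in a single activin library they were 67.4% and 54.3%. Regions with a vehicle and no activin peak had the reverse makeup, with FLAG-FOXL2 in both vehicle libraries at 31% and H3K27ac at 84.5%. Among gained regions these shares were larger where SMAD2/3 was stronger. From the weakest 1161 to the strongest 1161 by mean percentile of −log10 q, FLAG-FOXL2 went from 75.6% to 88.6% and H3K27ac from 61.8% to 87.1%. The FLAG-FOXL2 lists are much longer than the SMAD2/3 lists, and the share expected by position alone was not computed. Of the gained regions 26.8% had another gained region within 10 kb, beside 29.5% of kept regions and 24.3% of all regions.

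The fold enrichment of a peak, as the authors deposited it, is a linear ratio over a background that the sources used here do not describe. In gained regions it had a median of 6.16 in activin replicate 1 (range 2.15 to 26.4) and 5.75 in replicate 2 (range 2.41 to 28.2). Across the 4642 gained regions the log2 folds of the 2 activin libraries had a Pearson r of 0.794 and a Spearman rho of 0.762. These are values across regions chosen for having both peaks, and regions are not independent replicates. The median fold of kept regions was 6.63 and 5.10 in the 2 vehicle lists, against 15.0 and 15.4 in the 2 activin lists. Each fold belongs to its own list, and differences in fold between lists were not tested.

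None of the 20 strongest gained regions was a promoter: 11 were intergenic, 8 intronic and 1 at a transcript end. All 20 carried H3K27ac in both activin libraries and 19 carried FLAG-FOXL2 there. Over all gained regions these shares were 73.4% and 80.6%, and over the strongest 1161 they were 87.1% and 88.6%. The highest folds belonged to a region 13.2 kb upstream of Esr2 (ENSMUSG00000021055), the gene of estrogen receptor β, at chr12:76190293-76190684, with 26.4 and 28.2 in the activin libraries. It had FLAG-FOXL2 and H3K27ac in both activin libraries and neither in both vehicle libraries. A region 2.71 kb upstream of Ldlrad4 (ENSMUSG00000024544), whose product restrains TGF-β signalling by binding SMAD2 and SMAD3, had folds of 15.8 and 13.3. Papd4, a cytoplasmic poly(A) polymerase, had a region 1.30 kb inside the gene with folds of 17.0 and 20.2. Kdm4b, a histone demethylase, had one 30.1 kb upstream with 18.0 and 17.4. Dync1i2, a dynein intermediate chain, had one 37.1 kb upstream with 20.3 and 20.9. Atp13a3 and Abhd2 completed the protein-coding names, with regions 5.99 and 9.15 kb upstream. For the other 13 of the 20, the nearest start belonged to a noncoding RNA or pseudogene: Gm17228 was listed for a region inside an intron of Fbxl17.

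Over all 4642 gained regions the nearest start was protein-coding for 51.3%, beside 51.1% of all 8602 regions. It was a processed pseudogene for 11.8% and a lincRNA for 7.22%. For 48.7% the nearest protein-coding gene was another gene than the one listed. By the listed name, 3228 genes had a gained region, of which 2339 had exactly 1 and 61 had 5 or more. The listed genes with most gained regions were 1700123O21Rik and Gm7729 with 8 each. Among those with 7 were Fgf12, a growth factor homologue that binds sodium channels, Spock1, an extracellular proteoglycan, Shisa9, an AMPA receptor auxiliary protein, and Supt3, a subunit of the SAGA complex. By nearest protein-coding start, an assignment chosen after these values were seen, Celf4, an RNA-binding protein, and Auts2 led with 18 each. Cntnap5a followed with 13 and Dpp10 with 12. Of the 128 listed genes with a kept region, 66 (51.6%) also had a gained one, which is 2.04% of the genes with a gained region. Of the 5125 genes listed for any region, 63.0% had a gained one.

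Many genes of the gonadotrope had a gained region listed under them or nearby. Of 17 listed gonadotrope hormone and identity genes named in the deposited tables, 9 (52.9%) were the listed nearest start of a gained region. The share of all protein-coding genes was 10.9%. Here and below, all protein-coding genes means those named in the deposited tables of any library of the series. They number 15469 for listed starts and 14535 where a resolved start is needed. Genes nearest to no peak of any library are not among them. Within 100 kb of the start, 14 of 17 (82.4%) had a gained region, against 35.8% of all protein-coding genes, and the median number was 2 against 0. By nearest protein-coding start it was 11 of 17 (64.7%) against 18.4%. Most other lists also exceeded 18.4% by that measure, up to 36.4% for other pituitary lineages. Only the AP-1 and immediate early list (15.8%) and the ribosomal protein list (14.3%) lay below it. For kept regions, 1 of 17 was listed (Cga) against 0.388% of all protein-coding genes. Within 100 kb, 2 of 17 had a kept region (Cga and Fshb) against 1.35%. Kept regions were not particular to this list. In a list of other pituitary lineages, 1 of 12 was listed for one (Ghrhr) and 1 of 11 had one within 100 kb. Lists of feedback inhibitor and ribosomal protein genes had 1 of 16 and 1 of 21 within 100 kb. The gonadotrope list was chosen with results of these data known, and the difference from other genes was not tested. In all, 37 regions with both activin peaks were assigned to the 14 gonadotrope genes, 33 of them gained. Of the 37, 33 carried H3K27ac in both vehicle libraries, beside 57% of gained and 54.9% of all regions. FLAG-FOXL2 was in both vehicle libraries at 25 of the 37, beside 66.6% of all regions.

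Each hormone and receptor gene of the list had its own layout. Fshb had 2 kept regions upstream and no region at its start. The stronger one, 67.5 kb upstream at chr2:107126817-107127530, had folds of 12.6 and 10.3 in vehicle and 18.8 and 24.4 in activin libraries, and ranked 2, 1, 3 and 1 among the 132 kept regions in those 4 lists. The other lay 59.3 kb upstream with folds of 6.47, 5.07, 13.8 and 15.9, and gained regions lay 60.2 and 90.4 kb upstream. The annotation lists all 4 under the pseudogene Gm13903, so Fshb itself is missed by the listed names. Cga (ENSMUSG00000028298), the gene of the common α subunit, had a kept region over its promoter at chr4:34893273-34893926, with folds of 7.15 and 6.22 in vehicle and 13.7 and 11.2 in activin libraries. Gained regions lay 4.07 and 3.62 kb upstream and 2.02, 24.0 and 72.1 kb downstream of its start. Gnrhr, the receptor of gonadotropin-releasing hormone, had a gained promoter region with folds of 10.6 and 9.46 and a weaker one 5.79 kb inside the gene with 5.02 and 4.64. Lhb, the luteinizing hormone β subunit gene, had a gained promoter region with lower folds of 3.14 and 3.96.

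Transcription factor genes of the list had gained regions both at and away from their starts. Foxp2, a forkhead gene, had 4, the strongest 27.8 kb upstream with folds of 13.8 and 12.5, in an intron of the deposited annotation. Isl1, a LIM homeodomain gene, had 3, all downstream of its start, with activin folds of 6.44 to 9.05 in replicate 1 and 6.51 to 7.49 in replicate 2. Pitx1 had a gained promoter region with folds of 5.05 and 3.55. Nr0b1, which encodes the repressor DAX-1, had 3, the strongest 37.8 kb downstream with 11.8 and 12. Nr5a1, which encodes steroidogenic factor SF-1, had 1 inside the gene 15.3 kb from its start with 7.83 and 6.96. Endogenous Foxl2 had 1, 33.8 kb upstream with 12.3 and 13.3, where FLAG-FOXL2 was present and H3K27ac was not in either treatment's pair of libraries. Egr1, Otx1 and Tgfbr3l had no gained region within 100 kb.

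**Figure D4:**
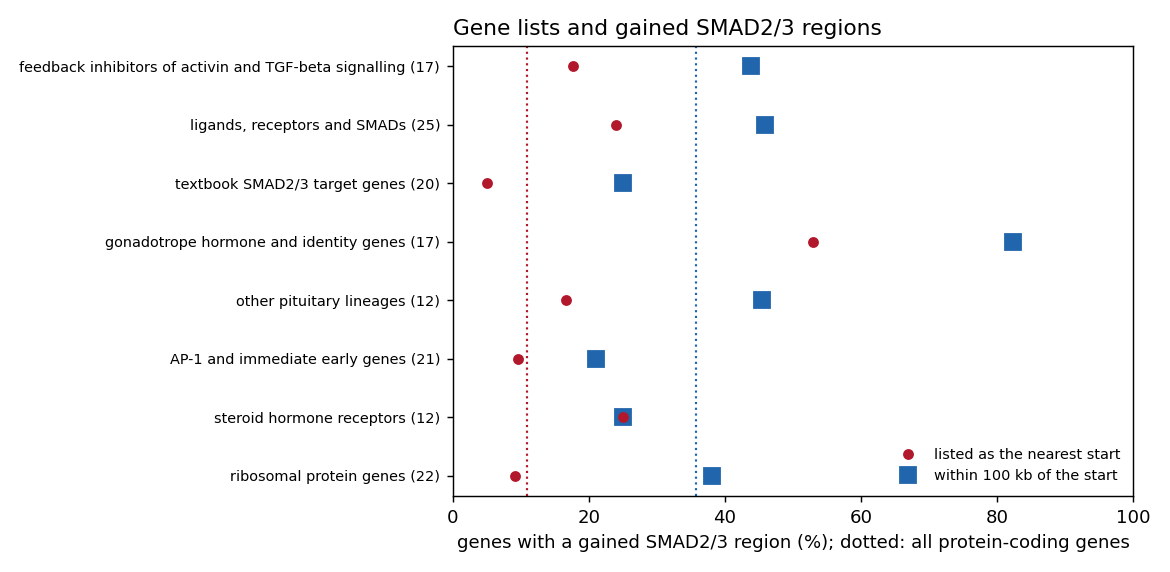
Share (%) of genes in each of 8 lists with a gained SMAD2/3 region, by listed nearest start (red circles) and within 100 kb of the start (blue squares). Numbers in parentheses are genes named in the deposited tables. Dotted lines mark all protein-coding genes named in the deposited tables, at 10.9% and 35.8%. The gonadotrope list stands at 52.9% and 82.4%.

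Some of the pathway's own genes had gained regions. Of 25 genes of ligands, receptors and SMADs, 6 (24.0%) were listed for a gained region, against 10.9% of all protein-coding genes. Within 100 kb, 11 of 24 (45.8%) had one, against 35.8% of all protein-coding genes. Inhbb, the activin βB subunit gene, had gained regions 24.1 and 28.9 kb downstream of its start, with folds of 17.6 and 11.4 and of 9.22 and 6.12. Another region, 32.3 kb downstream, was also in vehicle replicate 1, with folds of 3.67 there and 13.7 and 17.5 in the activin libraries. Bmpr1b, a type I BMP receptor gene, had 3 gained regions, the strongest with 9.47 and 8.34. Smad3 had a weak one in an intron 48.5 kb from its start, with 4.68 and 4.47, and Smad2 one 13.7 kb upstream with 4.02 and 3.58. Gdf9 had a promoter-class region in vehicle replicate 1 and both activin libraries, with folds of 5.09, 12.6 and 10.7. No gained region lay within 100 kb of Inhba, Acvr1b, Acvr2a, Tgfbr1, Tgfbr2 or Smad4.

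Feedback inhibitors and textbook targets were counted in the same way. Of 17 feedback genes, 3 (17.6%) were listed for a gained region, against 10.9% of all protein-coding genes. Within 100 kb, 7 of 16 (43.8%) had one, against 35.8%. The inhibitory SMAD genes were bound near their starts and already had vehicle peaks. The region at a Smad7 promoter, 1.97 kb upstream of the gene's listed start, was kept, with folds of 5.41 and 3.76 in vehicle and 10.1 and 11.7 in activin libraries. It is listed under Gm20544. Smad6 had a promoter region 0.0315 kb from its start, in vehicle replicate 1 with a fold of 6.41 and in the activin libraries with 8.06 and 9.58. Of 20 textbook SMAD2/3 targets, 1 (5%), Hes1, was listed for a gained region, 3.18 kb upstream with 6.05 and 4.59. By nearest protein-coding start it was 5 of 20 (25%), above the 18.4% of all protein-coding genes. Within 100 kb it was also 5 of 20 (25%). The listed and 100 kb shares lay below those of all protein-coding genes. Among the 5 with a gained region within 100 kb, Id3, a helix-loop-helix inhibitor gene, had one 9.94 kb upstream with 7.50 and 6.47. Against the same backgrounds, the AP-1 and immediate early list had 2 of 21 (9.52%) listed, the ribosomal protein list 2 of 22 (9.09%) and the list of other pituitary lineages 2 of 12 (16.7%). Within 100 kb these were 4 of 19 (21.1%), 8 of 21 (38.1%) and 5 of 11 (45.5%). The steroid receptor list, which also holds retinoid receptor genes such as Rxra, had 3 of 12 (25%) by both measures: Esr2, Nr3c1 and Rxra.

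The 20 strongest kept regions all carried FLAG-FOXL2 and H3K27ac in both libraries of both treatments. Most of the 132 kept regions did too. In vehicle and activin libraries the shares of the 132 were 97.0% and 95.5% for FLAG-FOXL2 and 87.9% and 94.7% for H3K27ac. Of the 20 strongest, 11 were intronic, 8 intergenic and 1 of promoter class. Beside the upstream Fshb region, Nek6, a mitotic kinase gene, led in an intron 42.5 kb from its start, with vehicle folds of 17.0 and 11.6 and activin folds of 28.5 and 31.3. An intronic region of Supt3 was also among them, listed under Gm24979, with 11.2, 9.50, 23.5 and 22.8. Slc30a9, a zinc transporter gene, had 8.72, 7.39, 23.0 and 26.3 in an intron. Top1, the topoisomerase I gene, had 7.06, 5.32, 14.1 and 19.7. Mbd2, which encodes a methyl-CpG binding protein, had 6.51, 4.63, 10.8 and 11.2. The promoter-class one was at Serpine2, which encodes a serine protease inhibitor, with 9.60, 8.68, 18.6 and 22.9. That region is 41.3 kb upstream of the start the table lists for the gene.

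Ranks among the 132 kept regions, which have equal length in all 4 lists, kept much of their order between treatments. Spearman's rho of the ranks by −log10 q was 0.686 between the vehicle libraries, 0.914 between the activin libraries and 0.604 to 0.650 across treatments, as a description over 132 regions. In both activin libraries 33 regions (25%) ranked lower than in both vehicle libraries, and 35 (26.5%) ranked higher. Of the 10 promoter-class kept regions 6 ranked lower and 0 higher, against 27 and 35 of the 122 others. These ranks are relative to the other kept regions, so a fall in rank need not be a fall in fold. The largest fall was at the promoter of Ubr4, a ubiquitin ligase gene, listed under 2700016F22Rik. Its ranks were 12 and 23 in vehicle and 125 and 128 in activin libraries, with folds of 14.2, 8.43, 9.26 and 8.91. Mrpl32, a mitochondrial ribosomal protein gene, went from 13 and 40 to 129 and 129, with folds of 9.38, 5.40, 4.72 and 5.82. Ccny, a cyclin gene, went from 62 and 61 to 124 and 123, with folds of 8.59, 6.43, 9.9 and 9.62. The Cga promoter went from 69 and 45 to 106 and 118, although its folds were 7.15 and 6.22 in vehicle and 13.7 and 11.2 in activin libraries. Foxk1, an intergenic case 34.1 kb upstream, went from 42 and 104.5 to 128 and 120. In the other direction, an intronic region of Nek7, a kinase gene, went from 115 and 120 to 44 and 39. Spred1, an inhibitor of Ras and ERK signalling, went from 94 and 72 to 19 and 24. Kdm3a, a histone demethylase gene, went from 66 and 106 to 28 and 32, and regions listed under Gm9801 and Gm29487 completed the 5 largest rises.

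**Figure D5:**
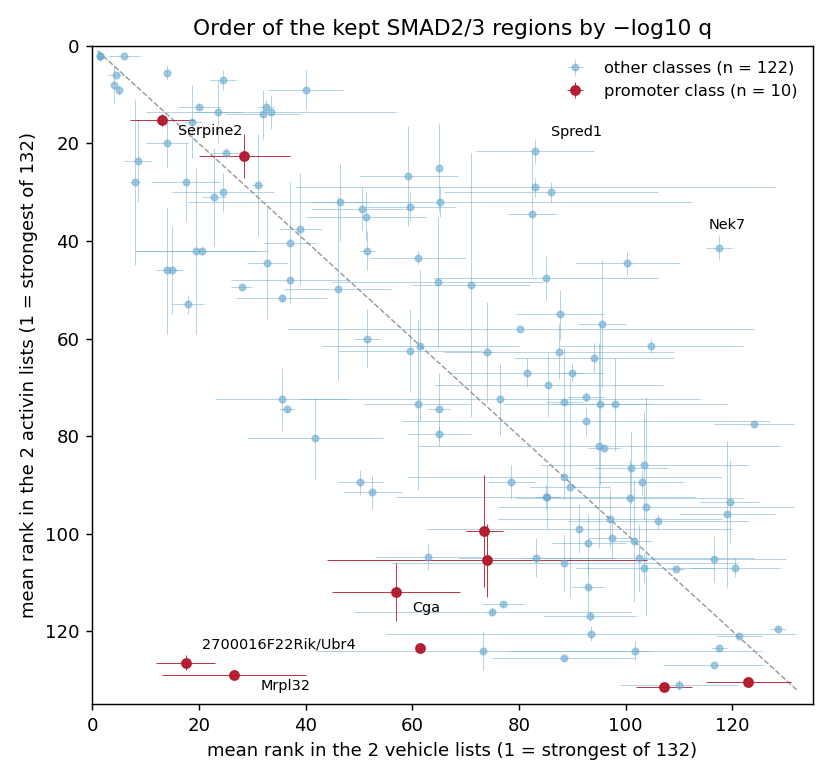
Mean rank by −log10 q in the 2 activin lists against that in the 2 vehicle lists, for the 132 kept SMAD2/3 regions (1 is the strongest). Bars span the 2 libraries of a treatment and the dashed line marks equal rank. Of the 10 promoter-class regions (dark red), 6 ranked lower in both activin libraries, and 2700016F22Rik/Ubr4 and Mrpl32 lie farthest below the line.

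Promoter sequences are shown for 5 genes that stand for the groups at promoters: Cga (kept), Gnrhr and Lhb (gained), Mrpl32 (kept, with the second largest fall in rank) and Maged1 (vehicle without activin). Each is the 250 bases before the start in RefSeq's GRCm38.p6 table, 5′ to 3′ in the direction of the gene, with capitals marking CAGAC, the SMAD binding element, or its reverse complement GTCTG, and the palindrome GCGCATGCGC.
Cga, chr4:34893529-34893778, plus strand: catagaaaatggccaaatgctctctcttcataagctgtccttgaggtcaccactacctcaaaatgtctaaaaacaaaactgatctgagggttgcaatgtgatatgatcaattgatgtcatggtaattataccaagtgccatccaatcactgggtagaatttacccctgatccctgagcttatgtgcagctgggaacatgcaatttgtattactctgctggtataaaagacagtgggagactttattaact
Gnrhr, chr5:86197902-86198151, minus strand: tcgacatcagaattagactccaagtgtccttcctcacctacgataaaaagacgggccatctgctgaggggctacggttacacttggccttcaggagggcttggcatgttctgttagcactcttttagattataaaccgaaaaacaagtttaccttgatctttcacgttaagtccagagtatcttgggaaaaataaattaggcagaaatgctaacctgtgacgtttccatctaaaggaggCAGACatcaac
Lhb, chr7:45420696-45420945, plus strand: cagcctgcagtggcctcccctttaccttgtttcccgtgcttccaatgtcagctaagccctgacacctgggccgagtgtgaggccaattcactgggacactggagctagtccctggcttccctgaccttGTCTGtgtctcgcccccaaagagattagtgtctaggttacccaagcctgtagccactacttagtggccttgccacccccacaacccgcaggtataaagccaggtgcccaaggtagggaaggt
Mrpl32, chr13:14613038-14613287, minus strand: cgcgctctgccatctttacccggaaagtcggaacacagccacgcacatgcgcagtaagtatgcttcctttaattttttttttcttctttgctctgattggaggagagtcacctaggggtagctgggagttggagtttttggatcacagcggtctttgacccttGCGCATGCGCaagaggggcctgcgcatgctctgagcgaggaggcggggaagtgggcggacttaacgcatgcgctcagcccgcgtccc
Maged1, chrX:94542026-94542275, minus strand: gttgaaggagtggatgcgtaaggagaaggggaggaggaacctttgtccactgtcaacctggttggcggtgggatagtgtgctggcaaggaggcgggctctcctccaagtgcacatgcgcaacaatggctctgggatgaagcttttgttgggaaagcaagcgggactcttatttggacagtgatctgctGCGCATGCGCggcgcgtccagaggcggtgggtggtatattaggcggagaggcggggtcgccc
The palindrome was added after these windows were seen.

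The Gnrhr window has 1 CAGAC, 11 bases before the start, and the Lhb window has 1 GTCTG, 122 bases before it. The Cga window has neither motif. In the Mrpl32 and Maged1 windows the palindrome begins 87 and 62 bases before the start, and no CAGAC or GTCTG is present. The strongest SMAD2/3 summit lay 66 bases before the start for Lhb, 88 for Mrpl32 and 71 for Maged1. For Cga and Gnrhr it lay farther upstream, at 375 and 283 bases, outside the window. A match is a description of the letters and not of a bound site.

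Base composition and motifs were then counted in promoter windows under the summits. Windows of 300 bases, from 250 before to 50 after each start, held the strongest summit of 28 of the 58 regions with a vehicle and no activin peak (38 windows) and of 19 of the 4642 gained regions (21 windows). Median GC content was 58.8% for the former and 49.7% for the latter, against 52.7% over all 32817 windows and 61.0% over the 8826 that overlap H3K27ac in both vehicle libraries. The median number of CpG pairs was 24 and 4, against 7 and 21. The 11 windows under regions with 1 vehicle and both activin peaks also had a median of 24 CpG pairs, with GC content of 57% and GGCGC in 72.7%. CAGAC or GTCTG was in 39.5% and 66.7%, against 49.6% and 47.5%. GGCGC or its reverse complement was in 81.6% and 28.6%, against 36.8% and 65.5%. The forkhead core TGTTTA, on either strand, was in 15.8% and 38.1%, against 13.4% and 7.76%, and the longer TGTTTAC, part of the same matches, in 2.63% and 14.3%, against 3.65% and 2.45%. GTCTAGAC is made of GTCT and its reverse complement AGAC, and holds no CAGAC or GTCTG. It was in 0 of 38 and 1 of 21, against 0.213% and 0.283%. It was also in 2 of the 11 windows and in 0 of the 5 windows under kept regions. GCGCATGCGC was in 18.4% of the vehicle windows and 4.76% of the gained ones, against 0.966% and 2.65%. It was also in 2 of the 5 windows under kept regions and in 0 of the 11. This palindrome was chosen from the windows shown, with Maged1 among the 38 and Mrpl32 among the 5. These shares are thus no independent sign of it. Windows of opposite genes can overlap, so the 38 are not independent.

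Only 2 regions had peaks in both vehicle libraries and in no activin library. One lay in an intron 0.316 kb from the start of Zbtb21 (ENSMUSG00000046962), a zinc finger gene, at chr16:97962206-97962405, with folds of 5.83 and 5.49. The other was the promoter of Maged1 (ENSMUSG00000025151), a member of the melanoma antigen family, at chrX:94541998-94542243, with 7.30 and 7.21. The 55 in vehicle replicate 1 alone, named here after their values were seen, included 3 histone genes, Hist1h4k, Hist1h4i and Hist3h2a. The promoter of Prim1, which encodes a DNA primase subunit, had a fold of 6.56, and that of Hnrnpa1, an RNA-binding protein gene, 4.48. Folds over these 55 regions ran from 2.35 to 7.19.

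Not every gained region of promoter class lay near a gene's listed start. Of the 171 gained promoter-class regions, 74 lay over 1 kb from the nearest listed gene start. Some of these carry the promoter class of another gene than the listed one, as the Crtam region does with 4931429I11Rik. The strongest gained promoter-class region, at Clk4, a splicing kinase gene, lay 0.491 kb from its start with folds of 10.6 and 9.69. Gm15401 followed, 0.243 kb from its start with 12.5 and 11.2. The regions of Sh3kbp1, Col4a6 and Erc1 had the promoter class 79.2, 15.3 and 21.3 kb from the listed start of those genes. Gnrhr and Nmral1 were within 1 kb of theirs, at 0.202 and 0.404 kb. All 10 of the strongest carried FLAG-FOXL2 in both activin libraries, and 9 did in both vehicle libraries. Over all gained regions these shares were 80.6% and 70.1%, and over the strongest 1161 they were 88.6% and 77.5%. Of the 10 promoter-class kept regions, 5 carried FLAG-FOXL2 in both activin libraries and 7 in both vehicle libraries.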

How the data were processed

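SMAD2/3 ChIP-seq peak lists of 4 LβT2 libraries, 2 vehicle and 2 activin, were analysed as deposited, with the FLAG-FOXL2 and H3K27ac lists as further readouts. Bowtie2, MACS2, HOMER, GRCm38 and mm10 are named in the submitters' processing notes, without versions. Peaks were called per library, as the deposited peak names show. Per the labels, reads were single-end 50 bp. Each deposited peak has the authors' score, linear fold enrichment (a ratio over a background not described), and −log10 p and q. The deposited score is a rescaled, truncated −log10 q. Fold and −log10 q served to describe and rank peaks. Class, nearest start and distance come from HOMER's annotatePeaks, per the file headers, with an annotation release not given in the sources used here.

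Peaks sharing 1 bp were merged (Python 3.11.15, pandas 2.3.3, numpy 2.4.6), and a region took the annotation of its strongest peak. Gene starts were derived from peak centres and deposited distances. Shares per library were compared with the exact two-sided permutation test over 6 labellings. Percentiles rank a peak by −log10 q within its list. The merging, overlap and permutation steps were tested on simulated data. Alternatives were leaving out each library, −log10 q of at least 5, lists of equal length, other overlaps and distances, and permutation within replicate number. Motifs and sequence windows used RefSeq's GRCm38.p6 promoter table. Older symbols were matched for 1 gene (Ccn2, listed as Ctgf). The text names the 20 strongest gained and kept regions, the genes with most gained regions, promoter-class regions, the largest rank changes, list members and regions in vehicle only. Members and lists were chosen with earlier results of these data known.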

Additional observations from a re-analysis of the deposited data

How the results depend on the processing

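Depth is unknown, so list length limits every count. With lists of equal length, 30 regions were gained and 65 kept, and the difference in peaks over 50 kb from a start was 0. A reciprocal overlap of 50% left 41 kept regions. Leaving out 1 library at a time gave 4650 to 7243 gained and 132 to 512 kept regions, with the highest counts without activin replicate 2 and without vehicle replicate 2. Without vehicle replicate 1, promoter-class regions with a vehicle and no activin peak numbered 2, against 42. Requiring 50% coverage gave H3K27ac at 62.9% of gained and 75.8% of kept regions. No comparison of 2 libraries against 2 could pass 0.05, so no p-value here speaks of stability.

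Across libraries left out, the difference in log2 peak number ran from 3.49 to 5.56, that in promoter share from -11.0 to -5.39 percentage points and that in intron share from 1.01 to 9.49 and that in intergenic share from 0.0104 to 3.90. Replicates share numbers in the labels without a stated pairing, and the correlation of replicate differences over kept regions was 0.0195. A replicate block cannot move a difference of means in this balanced design, and with it the differences were 4.53 for log2 peak number, -8.21 for promoter share, 5.25 for intron share, 1.95 for intergenic share, -8.38 within 1 kb, -0.990 over 50 kb, 0.17 for log2 distance and 35 bp for width, with an exact permutation p of 0.5, the smallest possible.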
